A study of Mus musculus with 22 samples.

Results

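The genes described are those that encode the proteins of the cytosolic ribosome in 22 mouse lymphoma libraries. They were chosen by symbol: protein-coding genes whose symbol starts with Rpl or Rps and a digit, together with Rpsa, Rplp0, Rplp1 and Rplp2, leaving out symbols with -ps and the Rps6k kinases. The rule found 86 genes among 52636 gene identifiers, and it left out 287 annotated copies of the same genes. One gene that the rule takes, Rps19bp1, encodes a nucleolar protein that binds Rps19 and is not a ribosomal protein. Ribosomal proteins with other names, such as Fau and Rack1, are outside the rule.

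Each ribosome holds one copy of most of these proteins, so cells make them in matched amounts, and growing cells spend a large part of their messenger RNA on them. Their messenger RNAs begin with a run of pyrimidines, the TOP element, through which the kinase mTOR controls their translation more than their abundance. Rpl5 and Rpl11, carried with the 5S RNA, can also bind Mdm2 and stabilise p53, a route that needs p53 and so lacks its target where p53 is deleted. Inherited loss of 1 allele of several of these genes causes Diamond-Blackfan anaemia in humans, and others are mutated in human leukaemia.

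All mice were of a mixed 129/C57Bl6 background, and in every group the floxed p53 alleles (p53fl/fl) were deleted by Mb1Cre (Mb1Cretg/+), which is active from early B lineage cells onwards. MCL-like and Ccnd2 non-MCL tumours also carried the Ccnd2 transgene in the Rosa26 locus (R26-Ccnd2tg/tg), whereas p53-only tumours did not. MCL stands for mantle cell lymphoma, and the immunophenotype is the submitters' label. The groups were MCL-like transplants (6 libraries from 4 mice), MCL-like primaries (4 mice), Ccnd2 non-MCL transplants (2 libraries from 1 mouse), Ccnd2 non-MCL primaries (3 mice) and p53-only primaries (7 libraries from 6 mice, all non-MCL). The transplants grew in NSG mice, which lack T, B and NK cells of their own but keep myeloid, erythroid and stromal cells. The titles of the 6 MCL-like transplants call them non-MCL while their immunophenotype field says MCL-like, and the field was followed. No ages are given in the labels.

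Libraries held 2693399 to 8146613 counts, of which 168674 to 788926 fell on the 86 genes. Ccnd2 was at 1493 to 2591 CPM (counts per 1000000) in MCL-like transplants and 1181 to 2127 CPM in MCL-like primaries. It was at 45.8 and 83.4 CPM in the Ccnd2 non-MCL transplants, below the 451 to 1953 CPM of Ccnd2 non-MCL primaries and within the 5.49 to 1028 CPM of p53-only libraries. Whether transgene reads are counted under Ccnd2 was not tested. Trp53, at 0.899 to 17.6 CPM over all libraries, is read at its 3' end, which checks no deletion. B cell markers (8 genes, none at 0 in all libraries) summed to 1549 to 7737 CPM, against 14.6 to 579 CPM for 10 T cell markers. Haemoglobin genes summed to 88.4 to 117000 CPM. These are bulk samples, so fewer cells of a type and less RNA per cell cannot be told apart in any value given here.

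The start regions of 6 members whose counts are described in detail are shown for their pyrimidine runs. They run from 50 bases before to 30 bases after the annotated start, 5' to 3' on the gene's strand (RefSeq, GRCm38.p6), and the longest run of at least 8 pyrimidines within 50 bases of the start is in capitals. Rps6 and Rpl15 varied most between libraries, Rpl13a is the member that passed the test in a comparison, and Rps26, Rps27 and Rps27rt were among the members with the lowest p. The regions are chr4:86857338-86857417 for Rps6, chr14:18270957-18271036 for Rpl15, chr7:45128716-45128795 for Rpl13a, chr10:128626477-128626556 for Rps26, chr3:90213619-90213698 for Rps27 and chr9:114982710-114982789 for Rps27rt, all on the minus strand.
Rps6: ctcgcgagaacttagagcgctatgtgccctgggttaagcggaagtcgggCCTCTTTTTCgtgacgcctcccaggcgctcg
Rpl15: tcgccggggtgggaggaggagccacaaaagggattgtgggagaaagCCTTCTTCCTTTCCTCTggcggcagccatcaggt
Rpl13a: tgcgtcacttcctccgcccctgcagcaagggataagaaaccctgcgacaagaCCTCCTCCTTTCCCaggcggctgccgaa
Rps26: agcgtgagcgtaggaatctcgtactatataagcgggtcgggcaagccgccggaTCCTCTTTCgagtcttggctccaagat
Rps27: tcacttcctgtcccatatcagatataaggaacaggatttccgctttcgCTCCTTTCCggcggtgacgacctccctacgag
Rps27rt: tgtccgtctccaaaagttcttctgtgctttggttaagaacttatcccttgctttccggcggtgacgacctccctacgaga
The first 5 hold a run of 9 to 17 pyrimidines at the start, and Rps27rt, a copy of Rps27 elsewhere in the genome, holds none of 8 or more.

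Promoters of 66 of the 86 members were matched by symbol. A run of at least 8 pyrimidines on the gene's strand within 50 bases of the start was found in 51 of them (77.3%), against 35.7% of 27025 gene promoters. In the 300 bases of each promoter, searched on both strands, CCGGAAG, a core that ETS factors bind, stood in 25 members (37.9%), against 9.12% of all promoters. GGGCGG, the GC box, stood in 60.6% of members against 35.9% of all promoters. CACGTG, the E-box that Myc binds, stood in 7.58% of members against 7.24%, TATAAA in 9.09% against 14.2%, and CCAAT in 30.3% against 37.9%. Motifs that overlap each other were counted for each, and a match describes the letters of the window only.

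In this assay each transcript gives tags from its 3' end, so a CPM value needs no correction for length, but it depends on how well that end can be assigned. The mean over 22 libraries exceeded 1000 CPM for 37 members, and its median over members was 806 CPM. The highest were Rpl37 of the large subunit at 4425 CPM, Rps12 of the small subunit at 4001 CPM and Rps14, also of the small subunit, at 3953 CPM. These 3 genes held 13.3% of the summed CPM of all members, and the 10 highest held 34.8%. Rps6, the small subunit protein phosphorylated by S6 kinases, was far down the list at 39.3 CPM, and Rpl15 was at 53.7 CPM.

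The 5 lowest members were Rpl36al (7.68 CPM), Rpl3l (3.46 CPM), Rpl24 (0.539 CPM), Rpl39l (0.330 CPM) and Rpl10l (0.0449 CPM). Rpl10l and Rpl39l are paralogues known from testis, and Rpl3l is known from muscle. Rpl10l had 3 counts in all, in 3 libraries, and 19 libraries had none, which allows up to 0.368 to 1.11 CPM per library by depth (3 counts). Rpl3l had 44.0 CPM in Ccnd2 non-MCL transplant replicate 2, from 173 counts, and 13.7 CPM in p53-only replicate 4. The other transplant library of that mouse had no Rpl3l count. Rpl24 is no tissue paralogue: it encodes a core large subunit protein, and yet only 50 counts were assigned to it over all libraries. In its last 200 bases, 68.9% of 50-base windows also occur in other annotated transcripts. These 4, all but Rpl36al, did not pass the filter on low counts, and 82 members were tested in every comparison.

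**Figure D1:**
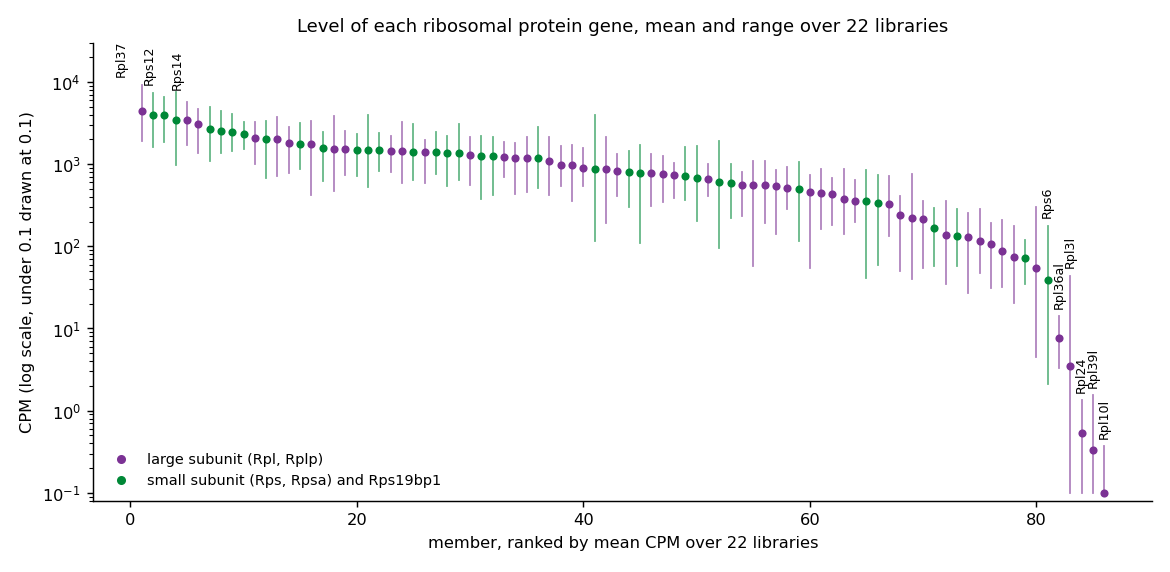
Each point is the mean CPM (log axis) of 1 of the 86 members over 22 libraries and each line its range over libraries, ranked by mean and coloured by subunit; values under 0.1 CPM are drawn at 0.1. Rpl37 leads at 4425 CPM, and the 5 lowest, from Rpl36al at 7.68 CPM down, lie below Rps6 at 39.3 CPM.

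Near-identical copies limit what a single member's count can show. Over the last 200 bases of each transcript, 21 members shared no 50-base window with another annotated gene, 48 shared at least 50% of their windows and 9 shared all of them. Every window of Rps27 and of Rps27rt was shared, and Rps6 shared 72.2% of windows with 10 genes. Rpl13a shared all its windows with 6 genes, which together were at 123 CPM, beside 130 CPM for Rpl13a itself. The median level was 806 CPM among the 48 members and 845 CPM among the other 38 members. Across the 86 genes, which are not independent replicates, Spearman's rho between the shared percentage and the mean CPM was -0.027. How the submitters treated reads that match several genes is not given in the sources used here, so values of members with shared windows are uncertain.

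The summed share of the 86 genes overlapped between the primary groups, while both Ccnd2 non-MCL transplant libraries lay above every Ccnd2 non-MCL primary. It was 10.4% ± 2.87 of counts in MCL-like transplants (SD, n = 4 mice) and 8.30% ± 1.498 in MCL-like primaries (n = 4). It was 10.3% and 11.3% in the Ccnd2 non-MCL transplant libraries and 7.80% ± 2.43 in Ccnd2 non-MCL primaries (n = 3). In p53-only primaries it was 9.60% ± 1.72 (n = 6). By library, MCL-like transplants ran from 5.27% to 12.4%, MCL-like primaries from 7.34% to 10.50%, Ccnd2 non-MCL primaries from 5.06% to 9.68% and p53-only primaries from 7.38% to 12.5%. All primary groups overlapped, and no test was made on the sum, because the members were chosen with results known.

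**Figure D2:**
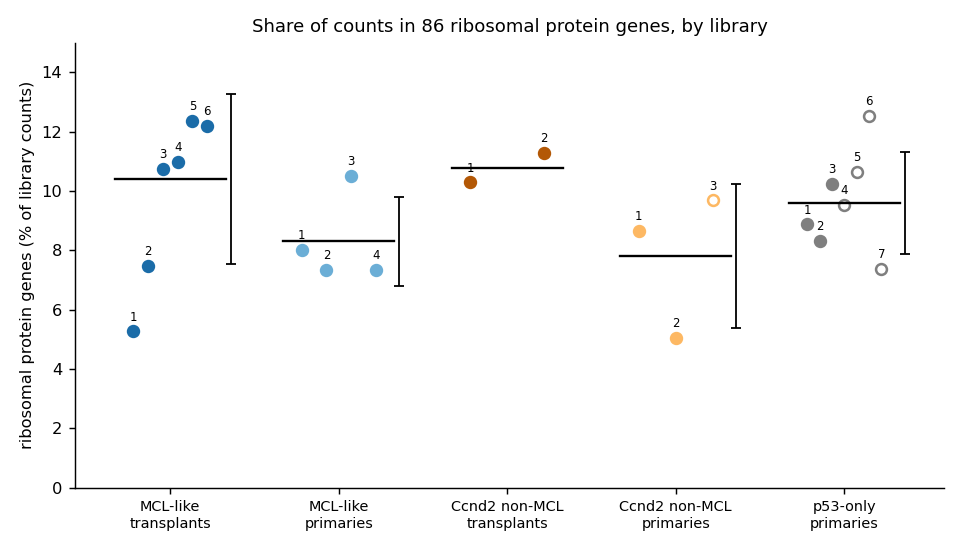
Points are libraries, numbered by replicate, with the percentage of counts in the 86 genes on the vertical axis; open points are libraries named oTP, lines are means over mice and bars are SD over mice (none for the single mouse of the Ccnd2 non-MCL transplants). The lowest library is Ccnd2 non-MCL primary replicate 2 at 5.06% and the highest p53-only replicate 6 at 12.5%.

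Haemoglobin counts also varied between groups. They took 5.98% ± 3.63 of counts in MCL-like primaries (n = 4), 1.78% ± 1.43 in Ccnd2 non-MCL primaries (n = 3) and 0.884% ± 1.48 in p53-only primaries (n = 6). With haemoglobin genes taken out of the total, the summed share was 8.83% ± 1.58 in MCL-like, 7.93% ± 2.42 in Ccnd2 non-MCL and 9.69% ± 1.69 in p53-only primaries. The order of the 3 means stayed the same and the groups still overlapped.

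The spread of the members over the 13 primary mice was set beside that of other genes at the level of the middle members. The SD of log2 TMM-scaled CPM (CPM on effective library totals) had a median of 0.56 over the 82 members, against 0.68 over 231 other genes with means between 407 and 1414 CPM. Members outside that range of levels, such as Rps6 and Rpl37, were not matched on level. The median SD was 0.45 when each member was taken as a share of the ribosomal protein total. The summed level itself had an SD of 0.35. These are descriptions, with no test.

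The members that varied most were Rps6 (SD 1.85), Rpl15 (1.68), Rps27a (1.301), Rpl35a (1.13) and Rps23 (1.08). Rps27a encodes ubiquitin fused to a small subunit protein, Rpl15 and Rpl35a are large subunit proteins lost in some Diamond-Blackfan families, and Rps23 lies at the decoding centre. The other members were at 1.08 or below.

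Within the p53-only group, all 5 were higher in each library whose sample name starts with oTP (replicates 4 to 7) than in any of the rest (replicates 1 to 3). These 5 were picked for their SD over the 13 primary mice, which include the p53-only mice. Their split is therefore a description and no independent result. Rps6 was at 178, 134, 158 and 120 CPM in the oTP libraries, against 14.0, 9.08 and 26.8 CPM in the others. Rpl15 was at 172, 127, 302 and 133 CPM in the oTP libraries, against 9.39, 20.6 and 36.6 CPM in the others. Both genes were higher in every oTP library than in any other p53-only library. Rpl35a was at 763, 532, 574 and 396 CPM in the oTP libraries, against 143, 165 and 223 CPM in the others. Rps27a was at 1715, 3923, 1900 and 1581 CPM in the oTP libraries, against 476, 1221 and 717 CPM in the others. Neither gene overlapped between the 2 sets.

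One mouse gave a library to each set, which sets them side by side within an animal. Its oTP library (replicate 5, site given as lymphoma) held 134 CPM of Rps6, 127 of Rpl15, 532 of Rpl35a and 3923 of Rps27a. Its other library (replicate 2, spleen) held 9.08 CPM of Rps6, 20.6 of Rpl15, 165 of Rpl35a and 1221 of Rps27a. The log2 differences, computed on CPM plus 0.5, were 3.81, 2.60, 1.69 and 1.68 in that order of genes. Over the whole group, which includes this mouse, the log2 ratios of means were 3.11 for Rps6, 3.02 for Rpl15, 1.68 for Rpl35a and 1.502 for Rps27a.

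With the counts of genes with shared 3' windows added, the sets did not overlap. Reads that match several genes may be missing from all of these counts, so the sums do not test how reads were assigned. Rps6 together with its 10 sharing genes was at 142 to 220 CPM in the oTP libraries, against 35.99 to 66.2 CPM in the others. Rpl15 with its sharing genes was at 132 to 316 CPM in the oTP libraries, against 20.6 to 52.98 CPM in the others. Rps23, which shares no window, was at 586 to 855 CPM in the oTP libraries, against 322 to 359 CPM in the others.

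Most members overlapped between the 2 sets. Of the 82 members, 17 (20.7%) were higher in every oTP library than in any other p53-only library, where 17.1% of all genes tested were. Lower in every oTP library were 4 members (4.88%), beside 9.46% of all genes tested. The median log2 ratio of means was 0.19 over the members and 0.19 over all genes. The 4 lower members were Rps26 (log2 ratio -1.09), Rpl13 (-0.97), Rps19bp1 (-0.90) and Rps15a (-0.87). Rps26, which contacts messenger RNA at the exit site, was at 1594, 1505, 1495 and 980 CPM in the oTP libraries, against 2138, 3010 and 3775 CPM in the others.

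The labels do not say what oTP stands for. Within the p53-only group the oTP libraries are labelled mediastinal lymphoma, lymphoma or thymoma and all others spleen, so name and site cannot be told apart. Mitochondrially encoded genes took 2.25% to 3.44% of counts in these oTP libraries, against 5.18% to 8.70% in the other p53-only libraries. The remaining oTP library, Ccnd2 non-MCL replicate 3 from spleen, had 31.4 CPM of Rps6, 46.4 of Rpl15 and 2.32% mitochondrial counts. Its group mate from the mediastinum, replicate 1, had 20.8 CPM of Rps6, 61.6 of Rpl15 and 5.88%. That oTP library's Rps6 lay below the 120 CPM of the lowest p53-only oTP library.

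**Figure D3:**
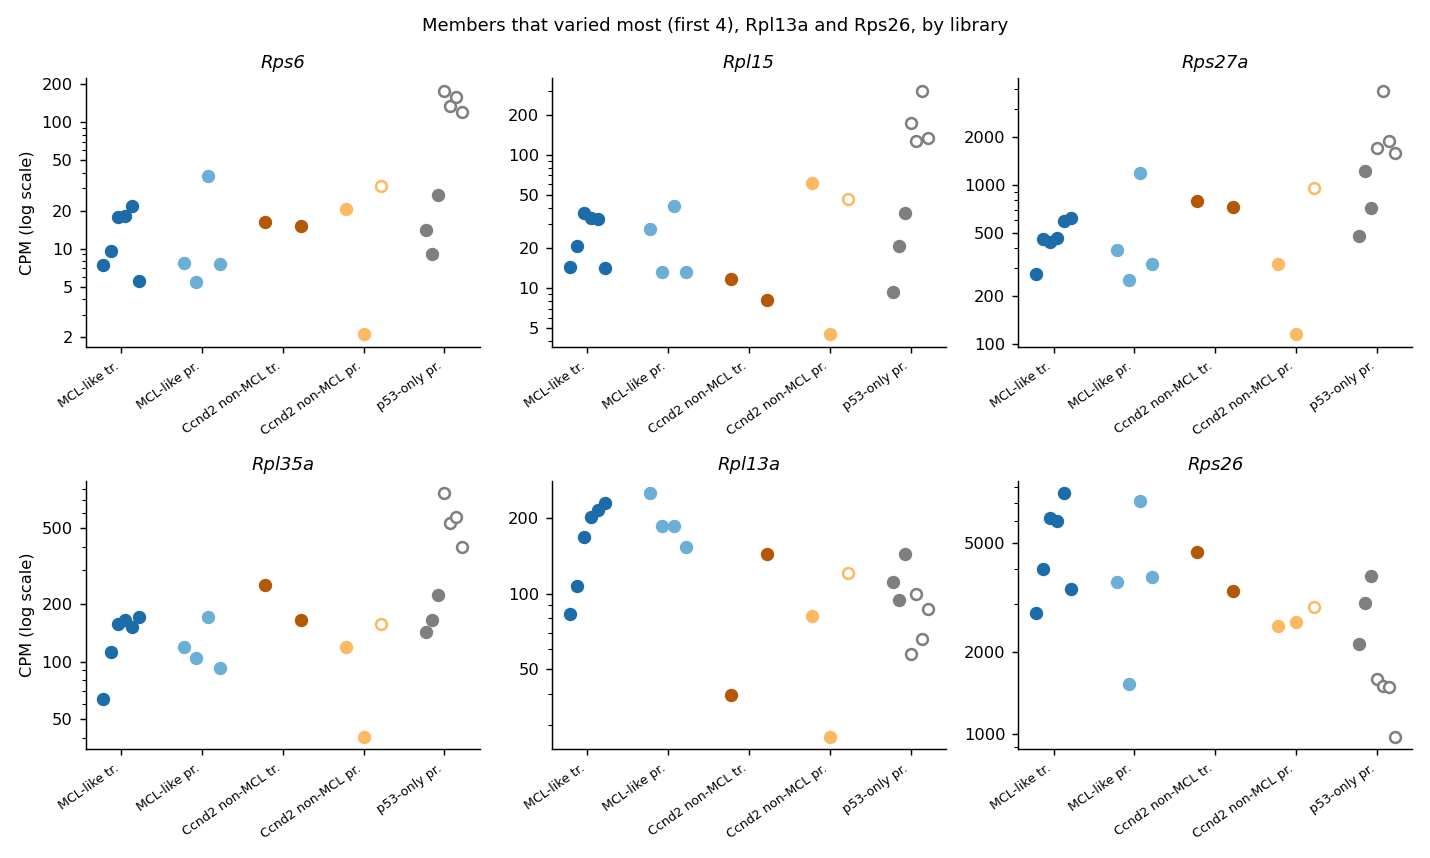
CPM (log axis) of 6 members in each library by group (tr., transplants; pr., primaries), with open points for libraries named oTP. For Rps6 and Rpl15 the 4 open p53-only points, at 120 to 178 and 127 to 302 CPM, lie above every other library, while for Rps26 they lie below the other p53-only libraries.

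The comparison of MCL-like with Ccnd2 non-MCL primaries sets tumours of the same genotype but different phenotype side by side. No member of 82 passed an adjusted p of 0.05 (edgeR's quasi-likelihood test, Benjamini-Hochberg over 12967 genes), where 0.308% of all genes tested did (0.0617% higher and 0.247% lower). DESeq2 called 2 members, Rpl13a and Rps27, both higher. At an unadjusted p under 0.05 there were 6 members, all higher in MCL-like tumours, beside 16.8% of all genes in either direction. The members leaned up: 61 log2 fold changes were positive and 21 negative, with a median of 0.28, against -0.04 over all genes.

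Rpl13a, a large subunit protein, had the lowest p. Its TMM-scaled CPM was 298.8, 199, 198 and 138 in MCL-like primaries, against 81.8, 26.6 and 111 in Ccnd2 non-MCL primaries. Every MCL-like mouse was above every Ccnd2 non-MCL mouse, and the log2 fold change was 1.51 (SE 0.48, adjusted p = 0.133, edgeR's quasi-likelihood test). Rps27, a zinc finger protein of the small subunit, was at 1358, 1500, 1983 and 1119 in MCL-like primaries, against 899, 623 and 914 in Ccnd2 non-MCL primaries. These groups did not overlap either, and the log2 fold change was 0.88 (SE 0.32, adjusted p = 0.182, edgeR). Its copy Rps27rt was at 181, 250, 265 and 193 in MCL-like primaries, against 127, 95.1 and 70.3 in Ccnd2 non-MCL primaries.

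Rpl39, a short protein of the exit tunnel, and Rpl10, which joins the large subunit last and is mutated in human T cell leukaemia, completed the 5 lowest p. Rpl39 was at 532, 538, 833 and 444 in MCL-like primaries, against 448, 140 and 258.5 in Ccnd2 non-MCL primaries. Rpl10 was at 198, 152, 313 and 184 in MCL-like primaries, against 163, 52.9 and 79.8 in Ccnd2 non-MCL primaries. Both overlapped at 1 Ccnd2 non-MCL mouse, replicate 1. In all, 6 members did not overlap and were higher, where 7.58% of all genes were, a share near that background. None was lower without overlap, where 9.06% of all genes were. Ccnd2 non-MCL replicate 2, the library with the lowest summed share, gave the lowest value of Rpl13a, Rps27, Rpl39 and Rpl10, and without that mouse the median over the members was 0.11. Leaving out other mice gave medians up to 0.52.

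Markers of other cells had these values. All 10 T cell markers had positive log2 fold changes (median 3.11), as did 5 of 6 NK cell markers and 8 of 9 erythroid markers (median 1.47), although none passed the adjusted test. Summed T cell markers were at 445 to 579 CPM in MCL-like primaries, against 67.6 to 165 CPM in Ccnd2 non-MCL primaries. Which cells gave this sum was not tested. Cd2, the largest part of the sum, averaged 215 CPM in MCL-like primaries and 203 CPM in MCL-like transplants. Cd3d averaged 39.0 CPM in MCL-like primaries and 5.02 CPM in MCL-like transplants. Of the 10 T cell markers, 9 had negative log2 fold changes in MCL-like transplants against MCL-like primaries. The part of all these markers in the members' values was not tested.

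The comparison of Ccnd2 non-MCL with p53-only primaries asks what accompanies the transgene among non-MCL tumours. No gene at all passed (0% of 12967 in edgeR's quasi-likelihood test). DESeq2 called 2 members, Rpl35a and Rpl37a, both lower. At an unadjusted p under 0.05 there were 15 members, all lower in Ccnd2 non-MCL tumours, beside 10.3% of all genes in either direction. Of the 82 members, 71 had negative log2 fold changes and 11 positive, with a median of -0.46, against -0.04 over all genes. This comparison shares its Ccnd2 non-MCL mice with the previous one, so the opposite signs of the 2 medians are not independent.

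Rpl35a, the member with the lowest p, was at 119, 39.9 and 144 TMM-scaled CPM in Ccnd2 non-MCL primaries, against a lowest of 151, a median of 326 and a highest of 709 in p53-only primaries. The groups did not overlap, and the log2 fold change was -1.94 (SE 0.54, adjusted p = 0.319, edgeR's quasi-likelihood test). Rpl37a, of the large subunit, was at 711, 448 and 726 in Ccnd2 non-MCL primaries, against 801, 1356 and 2178 (lowest, median, highest) in p53-only primaries. Its log2 fold change was -1.15 (SE 0.34, adjusted p = 0.332, edgeR). The p53-only libraries named oTP were at 396 to 763 CPM of Rpl35a and 1418 to 2156 CPM of Rpl37a. The other p53-only libraries were at 143 to 223 CPM and 757 to 1410 CPM. Non-overlapping lower values were found for 4 members (Rpl35a, Rpl37a, Rps3a1 and Rps27), where 1.98% of all genes had them. No member was higher without overlap, where 1.57% of all genes were.

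Rpl10 at 163, 52.9 and 79.8 in Ccnd2 non-MCL primaries lay against 128 to 362 in p53-only primaries. Rps4x, the X-linked small subunit protein, was at 309, 116 and 371 in Ccnd2 non-MCL primaries, against 366 to 1085 in p53-only primaries. Rps16 was at 531, 199 and 368 in Ccnd2 non-MCL primaries, against 486 to 1252 in p53-only primaries. Each of these 3 overlapped at 1 Ccnd2 non-MCL mouse. The median over the members was -0.20 without Ccnd2 non-MCL replicate 2, -0.72 without Ccnd2 non-MCL replicate 1, -0.55 without tumours named oTP and -0.68 with spleen tumours only.

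**Figure D4:**
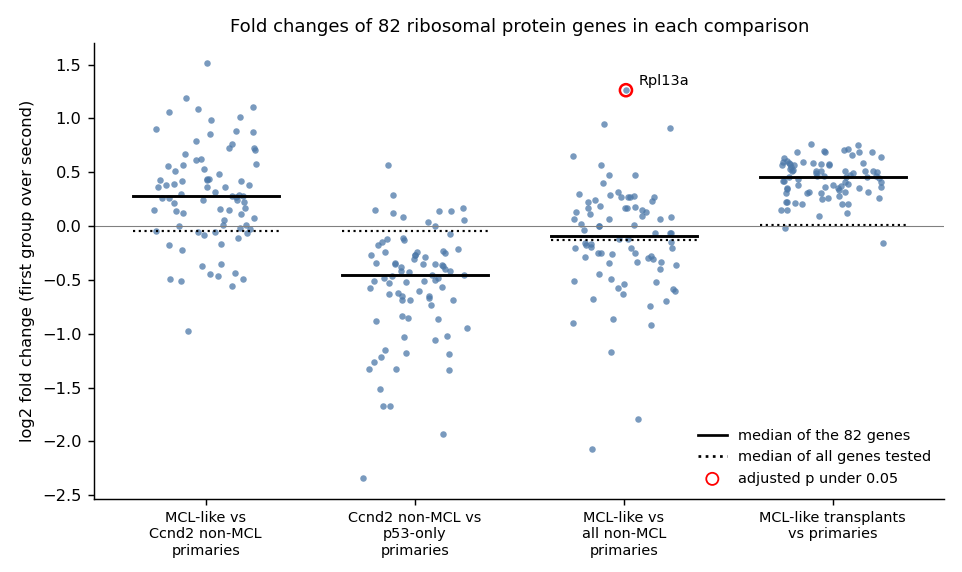
Each point is the log2 fold change of 1 of 82 members (first group over second); solid lines are medians of the members, dotted lines medians of all genes tested, and the red ring marks an adjusted p under 0.05. The members' medians are 0.28, -0.46, -0.09 and 0.46, and Rpl13a is the single ringed point.

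Comparing MCL-like with all 9 non-MCL primaries, Rpl13a rose and no other member passed. This is 1.22% of the 82 members, beside 5.52% of 12967 genes (2.84% higher and 2.68% lower). Its TMM-scaled CPM was 298.8, 199, 198 and 138 in MCL-like primaries, against a lowest of 26.6, a median of 81.8 and a highest of 148 in non-MCL primaries. Only p53-only replicate 3, at 148, stood above the lowest MCL-like mouse. The means were 209 ± 66.5 in MCL-like (SD, n = 4) and 86.9 ± 36.3 in non-MCL primaries (n = 9), and the log2 fold change was 1.26 (SE 0.34, adjusted p = 0.0453, edgeR's quasi-likelihood test). The call sat at the threshold: it was lost under 12 of 23 alternatives, with log2 fold changes of 0.82 to 1.47 over all of them. Every 50-base window at the 3' end of Rpl13a is shared with copies, and a copy transcript also overlaps it on the same strand.

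The signs of the members were mixed in this comparison. There were 36 positive and 46 negative values, with a median of -0.09, against -0.13 over all genes. The median was 0.11 without MCL-like replicate 4 and 0.08 without p53-only replicate 6. At an unadjusted p under 0.05 there were 7 members, beside 25.5% of all genes. No member's groups were free of overlap, where 2.44% of all genes were higher and 2.24% lower without overlap. DESeq2 called 2 members, Rpl13a and Rps28, both higher. Of 8 B cell markers, Cd37 and Ms4a1 passed, both higher in MCL-like primaries, and all 10 T cell markers (median 1.59) and 8 of 9 erythroid markers (median 2.06) had positive log2 fold changes without passing. Their part in the value of Rpl13a was not tested.

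Among the next lowest p, Rps27rt had a log2 difference of 0.95 (SE 0.36, adjusted p = 0.121, edgeR's quasi-likelihood test). It was at 181, 250, 265 and 193 in MCL-like primaries, against 53.3, 95.1 and 260 (lowest, median, highest) in non-MCL primaries. Rpl5, which binds the 5S RNA, was at 255, 218, 347 and 193 in MCL-like primaries, against 197, 400 and 888 in non-MCL primaries. Rps26 was at 4278, 1645, 7586 and 3411 in MCL-like primaries, against 902, 2484 and 3896 in non-MCL primaries. Rps6 was at 9.20, 5.90, 39.9 and 6.81 in MCL-like primaries, against 2.07, 28.8 and 166 in non-MCL primaries. Its log2 fold change of -2.07 (SE 0.95, adjusted p = 0.187, edgeR) turned to 0.07 without the tumours named oTP.

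By role, the member groups had the following medians in the primary tumours. Of 21 members lost in Diamond-Blackfan anaemia, none passed in edgeR's quasi-likelihood test, with medians of 0.26 for MCL-like against Ccnd2 non-MCL, -0.35 for Ccnd2 non-MCL against p53-only and 0.02 for MCL-like against all non-MCL. The 3 members Rps27, Rpl35a and Rps28, which DESeq2 called in 1 comparison each, belong to these 21. The medians for all 82 members were 0.28, -0.46 and -0.09. The 4 proteins of the stalk, which recruits elongation factors (Rplp0, Rplp1, Rplp2 and Rpl12), had medians of -0.17, -0.19 and -0.25, also with none called by edgeR. The 7 proteins at the exit tunnel had medians of 0.43, -0.52 and 0.06. The 6 genes mutated in human leukaemia or myeloma had medians of 0.42, -0.45 and 0.13. None of either group was called by edgeR.

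Rpl22 and its paralogue Rpl22l1 differed in level in all 5 groups. Rpl22 averaged 1497 ± 497 CPM in MCL-like transplants and 1309 ± 448 CPM in MCL-like primaries (SD, n = 4 mice each). It averaged 1069 ± 439 CPM in Ccnd2 non-MCL primaries (n = 3) and 1474 ± 253 CPM in p53-only primaries (n = 6), and 1647 CPM in the 1 mouse of the Ccnd2 non-MCL transplants. Rpl22l1, which can take its place in the ribosome, was lower, at 92.8 ± 58.6 CPM in MCL-like transplants and 65.5 ± 35.3 CPM in MCL-like primaries. Ccnd2 non-MCL primaries had 60.0 ± 44.5 CPM of it, p53-only primaries 74.5 ± 20.1 CPM, and the Ccnd2 non-MCL transplant mouse 92.0 CPM. Rps27l, known as a p53 target in human cells, averaged 96.4 ± 34.4 CPM in MCL-like primaries. Its mean was 114 ± 81.3 CPM in Ccnd2 non-MCL tumours, and 181 ± 64.0 CPM was the p53-only value.

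Other genes of the translation machinery were counted by the same test, which called 5.52% of all genes in MCL-like against all non-MCL primaries. In MCL-like against all non-MCL primaries, Eif3b, a core subunit of initiation factor 3, was the 1 gene of 23 in the list of initiation factors and TOP messenger RNA partners that passed, lower at 119 ± 28.6 (n = 4) against 313 ± 94.2 TMM-scaled CPM (n = 9; log2 fold change -1.40, SE 0.30, adjusted p = 0.0173, edgeR's quasi-likelihood test). Snhg5 was the 1 of 8 small nucleolar RNA host genes that passed, also lower (log2 fold change -1.31, SE 0.33, adjusted p = 0.0357, edgeR). Those 8, of a class known for TOP elements that codes for no ribosomal protein, all had negative log2 fold changes, with a median of -1.07, against -0.13 over all genes. None of the 15 mTOR pathway genes, 7 elongation factors or 2 tested ribosomal proteins of other names passed in any comparison. Fau was at 229 to 976 CPM and Rack1 at 862 to 4521 CPM over all libraries.

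MCL-like transplants were compared with the primary tumours of the same 3 mice, which asks what passage into a new host changes. No member passed in edgeR's quasi-likelihood test with mouse as a block, and neither did any other of 12020 genes (0% called; 5.46% at an unadjusted p under 0.05, among them no member). DESeq2 called no member. Yet 80 of 82 log2 fold changes were positive, with a median of 0.46, against 0.01 over all genes.

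The 3 mice did not move together. In the mouse of replicate 4 all 82 members were higher in the transplants (median log2 difference 0.94), and the summed share was 10.9% in the transplants, against 7.34% in the primary tumour. In the mouse of replicate 2, 80 of 82 were higher (median 0.78), and the share was 12.2% in the transplant, against 7.35% in the primary tumour. In the mouse of replicate 1 the direction was opposite: 74 of 82 were lower (median -0.45), and the share was 6.23% in the transplants, against 8.02% in the primary tumour. Its 2 transplant libraries held 5.27% and 7.47%. The primary tumour of this mouse is labelled mesenteric lymphoma. All other tumours of the 3 pairs are labelled spleen, so mouse and site cannot be told apart here. Without that mouse the median over the members was 0.84, without the mouse of replicate 4 it was 0.15, and without that of replicate 2 it was 0.28. Taken relative to the ribosomal protein total, the median was 0.04, but the members make up that total, so this median is small by construction.

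Haemoglobin was lower in the transplants of the 2 mice whose members were higher. In the remaining mouse 1 transplant library lay above the primary tumour and the other below it. It took 0.125% of counts in the transplants and 2.27% in the primary tumour of the replicate 4 mouse. In the replicate 2 mouse it took 0.0273% in the transplant and 10.95% in the primary tumour. In the replicate 1 mouse it took 7.05% in the summed transplants and 5.01% in the primary tumour. The transplant libraries of this mouse held 117000 and 10690 CPM of haemoglobin, against 50120 CPM in the primary tumour. T cell (9 of 10), NK cell (5 of 5), macrophage (9 of 9), neutrophil (8 of 8), erythroid (9 of 9) and stromal markers (8 of 8) also had negative log2 fold changes, and so had 7 of 8 B cell markers. Their part in the members' values was not tested.

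**Figure D5:**
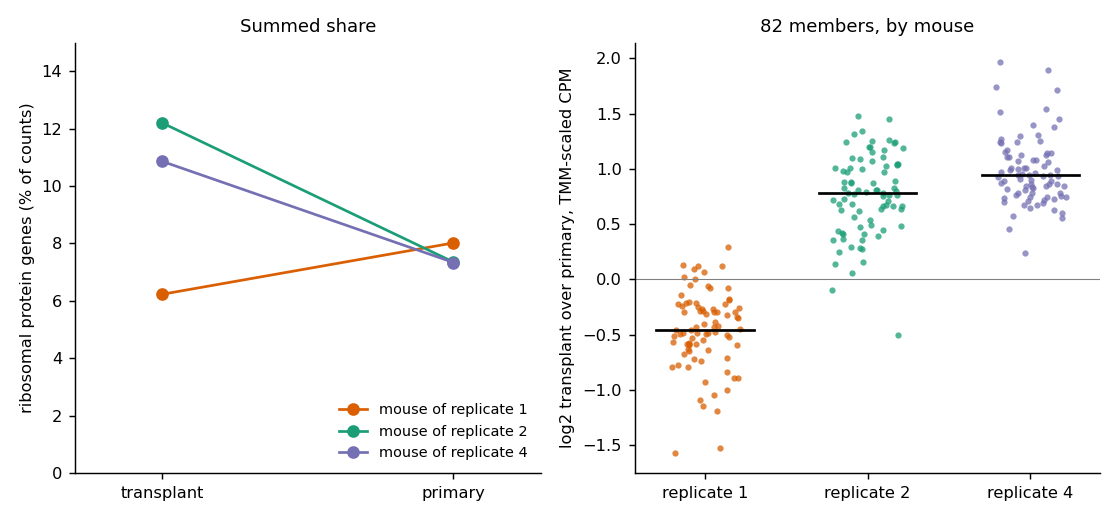
Left, percentage of counts in the 86 genes in the transplant and the primary tumour of each mouse (libraries of a mouse summed); right, log2 difference of each of 82 members in each mouse, with the median as a line. The mice of replicates 2 and 4 are higher in the transplant, at 12.2% and 10.9%, and that of replicate 1 is lower, at 6.23%.

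The members with the lowest p were Rpl17, Rpl22l1, Rpsa, Rpl7a and Rps19bp1, all with an adjusted p of 0.82 (edgeR's quasi-likelihood test). Rpl17, at the exit tunnel, was at 409, 550 and 572 TMM-scaled CPM in the transplants of replicates 1, 2 and 4, against 376, 267 and 265 in the primary tumours of the same mice. It was higher in 3 of 3 mice, did not overlap and its log2 fold change was 0.76 (SE 0.35). Rpsa, also known as a laminin receptor, was at 766, 1134 and 556 in the transplants, against 731, 479 and 290 in the primary tumours, higher in 3 of 3 mice. Rpl22l1 was at 42.7, 184 and 71.9 in the transplants, against 34.8, 116 and 44.9 in the primary tumours. Rpl22l1 overlapped between the tumour types but was higher in each mouse's transplant. Rpl7a differed by -0.05, 0.68 and 1.51 on the log2 scale in the mice of replicates 1, 2 and 4, and Rps19bp1 had a log2 fold change of 0.70 (SE 0.38). Without overlap 2 members, Rpl17 and Rpl41, were higher, where 3.64% of all genes were, and none was lower, where 3.61% of all genes were. Rpl13a had the lowest log2 fold change, -0.15 (SE 0.47), and differed between mice by -1.53, 0.35 and 0.64 on the log2 scale in replicates 1, 2 and 4.

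The Ccnd2 non-MCL transplants came from 1 mouse with no primary tumour among these libraries, so their values stand alone. Rps3a1, a small subunit protein, was at 1914 and 1721 CPM there, above the 95.3 to 965 CPM of all other libraries. It shared 67.5% of its 3' windows with 6 genes, so this value is uncertain. Among them Gm5586 (956 and 1271 CPM) and Gm8960 (827 and 1098 CPM) were also highest there, while Rps3a3 (29.6 and 24.9 CPM) was not. Rpl13a was at 39.4 and 143 CPM in the 2 libraries of that mouse.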

How the data were processed

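QuantSeq 3' libraries of 22 mouse lymphomas were deposited as a table of raw counts per gene, which the authors made with FastQC and STAR on GRCm38, per the submitters' processing notes; how reads were assigned to genes, and whether by strand, is not stated there. Members were taken from GENCODE M21 biotypes (52489 of 52636 identifiers matched). Members, gene lists and tests were chosen with earlier results of these data known. Counts of libraries from the same mouse were summed, since labels tie libraries to 15 mice. For the p53-only mouse of replicates 2 and 5 this joined a spleen library with an oTP library labelled lymphoma. Its Rps6 thus entered the tests at 50.2 TMM-scaled CPM, from libraries at 9.08 and 134 CPM. Comparisons used edgeR 4.0.16 in R 4.3.3 (filterByExpr, TMM scaling, robust quasi-likelihood F test, Benjamini-Hochberg over all genes tested, threshold 0.05). The primary groups shared a fit over 13 mice, and transplants were paired with primary tumours by mouse, a pairing that the labels give. Deviations from group means within the 3 pairs correlated at 0.24, 0.251 and 0.36 over 12020 genes. DESeq2 1.42.0, other scalings, no filter, subsets and leaving out each mouse were alternatives. Total counts of 2693399 to 8146613 per library set the precision, and floors of 3 counts cover counting error only. In data simulated with changes of 2 on the log2 scale the test recovered 28% of changed genes for MCL-like against Ccnd2 non-MCL primaries, whereas 33% were recovered in the comparison with p53-only. It recovered 58% for MCL-like against all non-MCL and 71% for transplants against primaries. False calls numbered 2, 0, 4 and 19 in that order of comparisons. The simulated means held no differences between mice, so the 71% does not describe pairs of tumours whose mice differ. Genes of low level were not among those changed. Named members were, per comparison, those called or else the 5 with the lowest p, the 3 highest and 5 lowest in level, and the 5 with the largest SD. Promoter sequences are from RefSeq (66 of 86 matched), and protein sequences were not used here. Values of some genes are not reported here.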

Additional observations from a re-analysis of the deposited data

Results flagged for a closer look

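Over 20 named members and the sum of all members, each in MCL-like transplants, MCL-like primaries and p53-only primaries, 10 of 63 sets of mice had a mouse far from the others by Dixon's criterion. All 10 were in the groups of 4 mice. Chance gives about 1 of 20 for independent sets, which these are not: members were named partly for their spread or low p, and they share libraries. The 10 sets fell on the same 2 tumours. MCL-like primary replicate 3 was the highest of its group for Rps6 (37.35 CPM, others 5.49 to 7.73), Rps27a (1191 CPM, others 250 to 389) and Rps23 (427.6 CPM, others 157 to 201). It was also the highest for Rpl17 (724.2 CPM, others 263 to 334), Rpl39 (781.2 CPM, others 448 to 500) and Rpl5 (325.4 CPM, others 203 to 215). The MCL-like transplant mouse of replicates 1 and 2 was the lowest of its group for Rpl37a (503.9 CPM, others 1310 to 1466) and Rpl39 (332.7 CPM, others 710 to 763). It was also the lowest for Rpl10 (119.0 CPM, others 288 to 313) and Rps19bp1 (66.12 CPM, others 106 to 111). These tumours had the highest share of ribosomal protein counts among MCL-like primaries (10.50%) and the lowest among MCL-like transplant mice (6.23%).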

How the results depend on the processing

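For MCL-like against all non-MCL primaries, 1 member was called, and the count was 0 with plain library size, 0 with no filter on low counts, 0 without tumours named oTP, 0 with spleen tumours only and 2 with DESeq2. Leaving out each mouse gave 0 to 2. DESeq2 called 2 members in MCL-like against Ccnd2 non-MCL and 2 in Ccnd2 non-MCL against p53-only primaries. The median over the members in MCL-like against all non-MCL primaries ran from -0.24 to 0.11 when each mouse was left out, turning positive without MCL-like replicate 4 (0.11) or p53-only replicate 6 (0.08). Rps6 turned in the same comparison, to 0.072 without tumours named oTP and 0.053 with spleen tumours only. The causes were not tested. Without the replicate block of mouse, transplants against primaries had a median of 0.47 and 0 calls. Scaling to the ribosomal protein total moved the median of all genes to -0.31, 0.34, -0.15 and -0.42 in the 4 comparisons. Plain library size moved it to -0.16 in MCL-like against Ccnd2 non-MCL primaries.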

Other observations

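Rps3a3, annotated as a processed pseudogene of Rps3a1 and left out of the members, differed more between mice than between libraries of a mouse. Its SD of log2 CPM was 2.47 between mice and 0.47 within mice, a ratio of 5.22, where the median ratio was 1.36 over 81 members and 1.56 over 41 copies. It was at 93.4 and 209 CPM in the transplants of the mouse whose primary tumour had 210.5 CPM (MCL-like replicate 1). It was at 10.8 and 12.8 CPM in the transplants of the mouse whose primary tumour had 8.597 CPM (replicate 4). In p53-only primaries it was at 307 and 238 CPM in the 2 libraries of the shared mouse and ran from 3.31 to 258 CPM in the others. These are values only, with no test.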
